A study of Mus musculus with 4 samples.

Results

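The oligoadenylate synthetase family of the mouse was examined in RNA-seq of AB2.2 mouse ESCs, an established line grown on MEF feeders in medium with serum, leukemia inhibitory factor, CHIR99021 and PD0325901. The 8 genes Oas1a, Oas1b, Oas1c, Oas1g, Oas2, Oas3, Oasl1 and Oasl2 were taken by their symbols from the 55335 genes that the deposited tables list. No cut on their values was applied, but the set was chosen with earlier results of these data known. Control cells gave 2 libraries, and cells kept for 24 h in 50 mM lactate gave the other 2. Because all cells came from 1 line and the labels do not say whether the libraries came from separate cultures, the p-values measure only the spread between these libraries, which may be technical.

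Oligoadenylate synthetases are sensors of double-stranded RNA. When bound to it, the active enzymes join ATP into short chains with 2′,5′ bonds, known as 2-5A, which act as a messenger in antiviral defence. The genes are classical targets of interferon, and the interferon response is known to be weak in pluripotent cells compared with differentiated ones.

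Of the 8 synthetase genes, 7 were lower in both lactate libraries than in both control libraries, as were 25.9% of all 18661 genes tested. The values of Oas3 overlapped between the groups. The summed level of the 8 genes was 161 and 154 CPM (reads on a gene scaled to library size with TMM factors) in the control libraries and 64.9 and 74.8 CPM in the lactate libraries. The mean therefore went from 157 ± 5.27 to 69.8 ± 6.96 CPM (SD, n = 2), which is 44.4% of control. The median log2 fold change of the 8 genes was −0.98, against 0.010 over all 18661 genes tested. In bulk RNA, fewer cells that transcribe a gene and less of its RNA per cell cannot be told apart.

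The libraries held between 18067562 and 19077885 reads on genes. Mitochondrial genes took 5.48% and 5.72% of these reads in control and lactate replicate 1 and 2.43% and 2.82% in replicate 2, so that this share moved with the replicate number rather than with lactate. All 10 ESC markers examined, among them Pou5f1, Nanog and Sox2, were detected in every library at a summed level of 5785 to 6991 CPM. None was called by edgeR, with 3 higher and 1 lower at an unadjusted p-value under 0.05. The 13 feeder fibroblast markers were also all detected, at a summed level of 3026 and 3215 CPM in control and 3964 and 3550 CPM with lactate. Most of this sum was Fn1 alone, with 2390 and 2348 CPM in control and 3322 and 2847 CPM with lactate. The log2 fold changes of the 13 markers had a median of 0.07, with 7 above and 6 below 0. edgeR called none, and 2 were lower at an unadjusted p-value under 0.05, of which Col3a1 had the lowest value, −0.90. Col3a1 had a DESeq2 adjusted p of 0.0379, with a change too small to be called. The 8 macrophage and blood cell markers summed to between 29.6 and 36.1 CPM. No library had over 2 reads of Ptprc, Adgre1 or Tyrobp or over 8 of Lyz2, whereas Cd68 had 318 to 440, Csf1r 83 to 144, Spi1 50 to 68 and Itgam 25 to 53 reads. None of these last 4, which could be tested, was called, and Itgam alone was higher at an unadjusted p-value under 0.05 (log2 fold change 0.90, edgeR adjusted p = 0.120). RSEM assigned Csf1r at most 4.56 reads in a library, so its raw counts are uncertain. The 5 tested markers of primitive endoderm had log2 fold changes from 0.39 to 0.99. edgeR called none of them, and 2 were higher at an unadjusted p-value under 0.05. Over all 18661 genes tested, 2186 were higher at that threshold. The primitive endoderm list summed to 16.02 and 14.4 CPM in control and 27.1 and 20.0 CPM with lactate. The part of feeder, endoderm and blood cells in the synthetase values was not tested.

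The sequence upstream of these genes is shown first. Any relation between it and the levels was not tested. Promoter windows of 300 bases, from 250 bases before the RefSeq start to 50 after it, were found for 6 of the 8 genes in RefSeq on GRCm38.p6, the C57BL/6J genome, so bases that differ in AB2.2 cells would not be seen. The interferon-stimulated response element, the binding site of a complex that holds STAT2 and IRF9, was searched on both strands as GAAANNGAAA. It was present in the windows of Oas1a, Oas1g, Oas1c and Oas3 and in 3.44% of all 32851 promoter windows. The gamma-activated site, searched as TTCNNNGAA, was present in Oas1a alone of these 6 and in 8.3% of all windows. A match describes the letters only. The 250 bases before the start are printed 5′ to 3′ along each gene, and the last letter adjoins the start. All GAAANNGAAA matches of these 4 genes lie in them and stand in capitals. The Oas1a stretch is chr5:120907526-120907775 (minus strand), Oas1g chr5:120887614-120887863 (minus), Oas1c chr5:120812515-120812764 (minus) and Oas3 chr5:120777660-120777909 (minus).
Oas1a: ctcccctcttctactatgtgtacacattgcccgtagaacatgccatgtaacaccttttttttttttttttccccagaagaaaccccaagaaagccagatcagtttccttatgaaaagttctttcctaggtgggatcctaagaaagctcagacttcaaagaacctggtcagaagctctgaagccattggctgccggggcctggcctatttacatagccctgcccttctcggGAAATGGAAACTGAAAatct
Oas1g: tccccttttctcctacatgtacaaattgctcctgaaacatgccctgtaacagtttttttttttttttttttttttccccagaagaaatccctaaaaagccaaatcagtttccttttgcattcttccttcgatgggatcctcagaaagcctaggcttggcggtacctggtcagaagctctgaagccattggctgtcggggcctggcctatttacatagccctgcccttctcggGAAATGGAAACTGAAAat
Oas1c: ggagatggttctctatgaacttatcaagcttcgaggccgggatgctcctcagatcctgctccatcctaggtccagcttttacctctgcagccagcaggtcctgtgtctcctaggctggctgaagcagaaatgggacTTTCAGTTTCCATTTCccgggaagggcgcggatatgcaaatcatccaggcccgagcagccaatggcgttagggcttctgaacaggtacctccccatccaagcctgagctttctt
Oas3: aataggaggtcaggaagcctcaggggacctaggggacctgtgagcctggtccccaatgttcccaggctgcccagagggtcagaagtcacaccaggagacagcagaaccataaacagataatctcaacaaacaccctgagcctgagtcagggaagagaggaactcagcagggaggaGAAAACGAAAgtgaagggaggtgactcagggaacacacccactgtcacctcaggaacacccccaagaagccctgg

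In Oas1a and Oas1g the matches overlap each other in the same run of 16 bases, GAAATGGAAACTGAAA, which ends 5 bases before the Oas1a start and 3 bases before the Oas1g start. In the Oas1c window the run lies on the opposite strand. There it points toward Oas1b, which is transcribed away from Oas1c with 120 bases between both gene starts, and it ends 7 bases before the Oas1b start. The run was taken from the Oas1a window, so its occurrence there was given in advance. The printed stretches of Oas1a and Oas1g are also alike beyond the run. The run occurs in 7 of all 32851 windows, and these belong to 5 genes, namely Oas1a, Oas1g, Oas1c, Apol9a and Apol9b. Apol9a and Apol9b, near-identical copies, were named here for this sequence, but after values were seen. In the control libraries Apol9a had 17 and 14 reads and Apol9b 5 and 6. With lactate, Apol9a had 4 and 5 reads and Apol9b 0 and 2, and Apol9a was not called (log2 fold change −1.84, edgeR adjusted p = 0.0819). The windows of Oasl1 and Oasl2 hold neither motif, which says only that these letters are not within those 300 bases. The Oas3 window holds 1 match, from 75 to 66 bases before its start. No RefSeq window was found for Oas2 or Oas1b, and the presence of a match was not compared with the changes.

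Levels between genes were compared as FPKM, which corrects for length. In control cells Oas1a, a synthetase of the small form, stood highest at 22.03 and 27.5 FPKM. Oasl1, Oas1g and Oas2 followed at means of 15.6, 14.8 and 12.7 FPKM, and the ranges of Oasl1 and Oas1g, and of Oas1g and Oas2, overlapped. Oas1b and Oas1c came next at 5.14 and 4.60 FPKM with overlapping ranges, then Oasl2 at 2.20 and Oas3 at 1.59 FPKM. In lactate-supplemented cells Oas1a still had the highest mean, at 9.34 and 15.1 FPKM, though its range overlapped that of Oas1g. Oas1g, Oasl1 and Oas2 lay between 4.88 and 9.85 FPKM, and Oas1b and Oas1c had means of 2.24 and 2.20 FPKM. Oas3 and Oasl2 changed places at the bottom of the order. Oas3 had 1.68 and 1.61 FPKM and Oasl2 0.44 and 0.32 FPKM with lactate, and the ranges of these 2 genes did not overlap in either group.

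**Figure D1:**
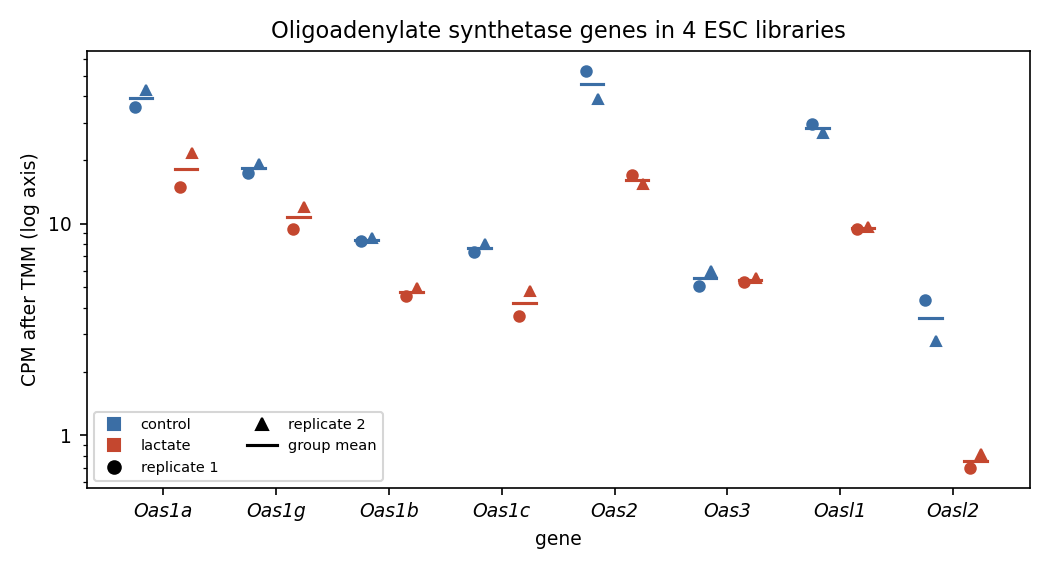
Level of each synthetase gene in each library, as CPM after TMM scaling on a log axis. Circles are replicate 1, triangles replicate 2 and lines the group mean (n = 2). The groups are apart for 7 genes and overlap for Oas3, which lies between 5.09 and 5.96 CPM in all 4 libraries.

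The genes are described by the kind of protein they encode, beginning with the Oasl genes, whose proteins carry ubiquitin-like domains behind the synthetase fold. Oasl1 encodes a protein without synthetase activity that is known to restrain translation of Irf7 mRNA. Its level was 29.7 and 26.9 CPM in control and 9.41 and 9.68 CPM in lactate libraries, so that all lactate values were well below control. Oasl1 fell 2.96-fold (log2 fold change −1.57, 95% interval −1.96 to −1.18, edgeR's quasi-likelihood test with adjusted p = 0.0320).

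Oasl2 encodes a relative that has kept synthetase activity. It had 75 and 53 reads, or 4.34 and 2.79 CPM, in control libraries and 13 and 16 reads, or 0.699 and 0.811 CPM, with lactate. This was the largest fold among the 8 genes, 4.67-fold lower (log2 −2.22, 95% interval −3.05 to −1.39), but on few reads. Its edgeR adjusted p of 0.0510 just missed the threshold of 0.05, whereas DESeq2 gave 0.00218 and edgeR's test not in its legacy form 0.0499.

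Oas2, a larger synthetase built of repeated units, had 53.0 and 39.1 CPM in control and 17.0 and 15.4 CPM in lactate libraries. The control libraries differed from each other more than the lactate libraries did. Oas2 fell 2.85-fold (log2 −1.51, 95% interval −1.98 to −1.04, edgeR adjusted p = 0.0406). Without control replicate 1, which had the higher level, its log2 fold change was −1.29 with an edgeR adjusted p of 0.0590.

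Oas3, the largest synthetase of the family, did not follow its neighbour. It had 88 and 113 reads in control and 99 and 109 reads in lactate libraries, which is 5.09 and 5.96 against 5.33 and 5.53 CPM. Its log2 fold change was −0.03 with a 95% interval from −0.52 to 0.46 (edgeR adjusted p = 0.955), so a fall of the size measured for Oas2 lies outside the interval. The sign of this small value was positive under 5 of 15 alternative settings, and the value ranged from −0.15 without control replicate 1 to 0.087 without control replicate 2.

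The Oas1 genes encode the small synthetases. Oas1a had 35.9 and 43.0 CPM in control and 14.8 and 21.6 CPM in lactate libraries. The groups did not overlap, and lactate replicate 2 lay nearer to control than lactate replicate 1. Its log2 fold change was −1.11 (95% interval −1.65 to −0.58), more than 2-fold, with an edgeR adjusted p of 0.0640 that did not pass and a DESeq2 adjusted p of 0.00111. Oas1g had 17.3 and 19.2 CPM in control and 9.41 and 12.0 CPM with lactate, again with separate groups. Its log2 fold change was −0.77 (95% interval −1.23 to −0.31, edgeR adjusted p = 0.0936), and on RSEM expected counts it was −1.02 (edgeR adjusted p = 0.102).

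Oas1a and Oas1g are near copies, and their separate values are uncertain. Of all 50-base windows of the Oas1a transcripts, 57.6% occur in transcripts of Oas1g, so reads can be lost or shared between these genes. Added together they had 53.2 and 62.2 CPM in control and 24.3 and 33.6 CPM in lactate libraries, which leaves 50.2% of control. The RSEM expected counts, which divide such reads between the copies, gave the sum at 50.7% of control. This value was not scaled to library size, so it is not directly comparable with the CPM value. For the other 6 genes at most 9.82% of windows occurred elsewhere.

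Oas1b is annotated as a polymorphic pseudogene, since many laboratory strains carry a premature stop codon that leaves them open to flaviviruses. It had 8.27 and 8.54 CPM in control and 4.57 and 4.97 CPM with lactate, a log2 fold change of −0.82 (95% interval −1.28 to −0.36, edgeR adjusted p = 0.0818). Its raw counts were 143 and 162 in control and 85 and 98 with lactate. RSEM assigned it only 79 and 81 and then 37 and 57 reads, so its raw counts are uncertain. On RSEM expected counts its log2 fold change was −0.87 (edgeR adjusted p = 0.148). Oas1c, a member thought to lack synthetase activity, had 7.34 and 8.01 CPM in control and 3.66 and 4.82 CPM with lactate. Its log2 fold change was −0.86 (95% interval −1.39 to −0.32, edgeR adjusted p = 0.101). Lactate libraries of both divergent genes lay below control by similar factors, to 56.8% and 55.3% of control. The antisense gene Gm43069 shares 227 of 2405 exonic bases with Oas1c and had between 15 and 40 reads in a library, and without knowledge of the strand setting such reads cannot be assigned. Gm43069 itself had a log2 fold change of −1.11 and was not called (edgeR adjusted p = 0.122).

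**Figure D2:**
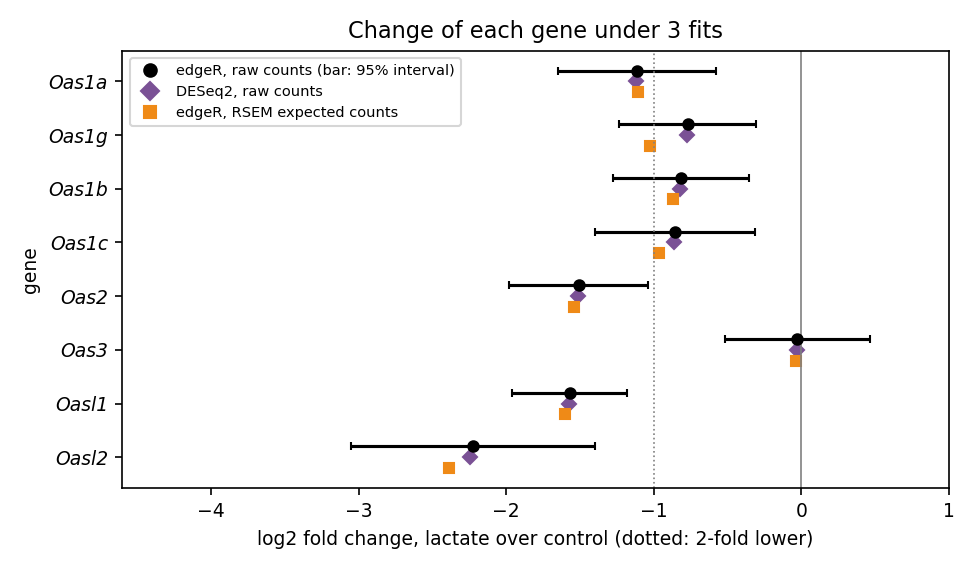
Log2 fold change of each gene, lactate over control, from edgeR on raw counts (circles with 95% interval), DESeq2 (diamonds) and edgeR on RSEM expected counts (squares). The raw-count fits nearly coincide, the RSEM value of Oas1g is lower at −1.02 against −0.77, and all Oas3 values sit near 0.

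At an adjusted p-value under 0.05 with more than a 2-fold change, edgeR called 2 of the 8 genes lower, Oasl1 and Oas2, and called none higher. Over all genes, 0.348% were called lower and 0.552% higher, so that 61.3% of the calls were higher, a share that was 73.0% when libraries were scaled by their totals alone. DESeq2, the test of the study's methods, called 4 of the 8 lower, these and Oas1a and Oasl2, where 1.00% of all genes with an adjusted p were called lower. On the RSEM expected counts edgeR called Oasl1 alone, with 0.109% of genes called lower. At an unadjusted p-value under 0.05, edgeR had 7 of the 8 lower, compared with 11.4% of all genes. Lactate libraries lay below both control libraries in 7 of the 8 and in 25.9% of all genes tested. All 8 genes passed the filter on low counts. The count of edgeR calls among the 8 moved with single libraries, as did the count over all genes, which was 65 lower with all libraries. Without control replicate 1, Oasl1 alone was called, and 39 genes of the whole table were called lower. Without control replicate 2 or without lactate replicate 1, 3 of the 8 were called, with Oasl2 added, where 148 and 270 of all genes were called lower. Without lactate replicate 2, 5 of the 8 were called, with Oasl2, Oas1a and Oas1c added, where 367 of all genes were called lower.

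Within a library the genes can be set against Oas3, which removes any effect of library scaling. Oas3 was taken as the reference after its values were seen, so these ratios restate the values above and are no separate check. For each Oas3 read, the control libraries held 10.4 and 6.57 reads of Oas2 and the lactate libraries 3.19 and 2.78. For Oasl1 these ratios were 5.84 and 4.52 in control and 1.77 and 1.75 with lactate, and for Oas1a 7.05 and 7.22 against 2.79 and 3.91. Each of the other 7 genes had lower ratios in both lactate libraries than in both control libraries. The ratios share the Oas3 reads, and no test of them was run. As a share of the reads of all 8 genes, Oas3 made up 3.16% and 3.88% in control and 8.20% and 7.39% in lactate libraries.

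**Figure D3:**
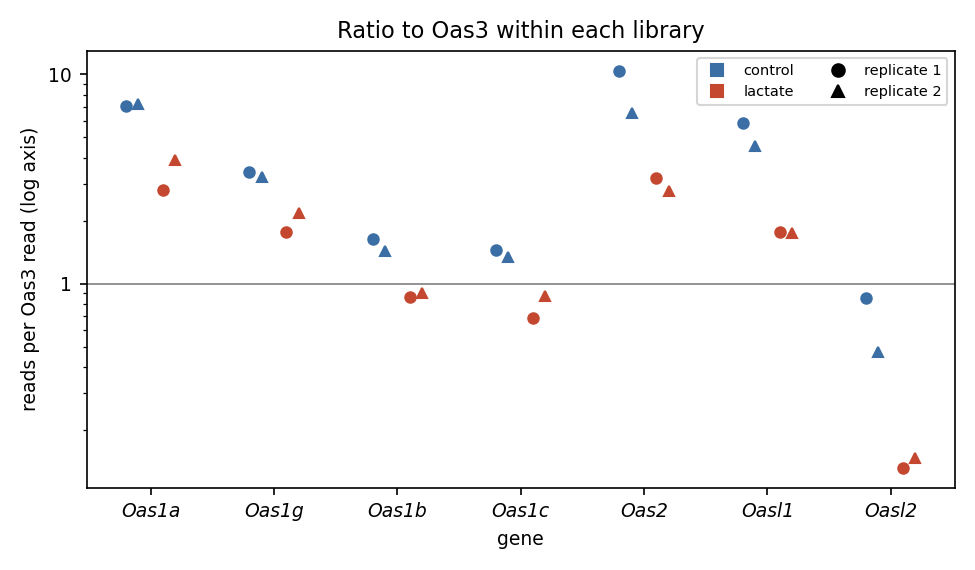
Reads of each gene per Oas3 read in the same library, on a log axis, for control (blue) and lactate (red) libraries. Every lactate point lies below the control points of the same gene, with at most 3.19 against at least 6.57 for Oas2 and at most 0.147 against at least 0.469 for Oasl2.

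All 8 genes lie on chromosome 5 of GRCm38 in a pair of loci. Oasl2 and Oasl1 span 114896936 to 114937915, and Oas2, Oas3, Oas1c, Oas1b, Oas1g and Oas1a lie between 120730333 and 120907521, a stretch of 177 kb. Beside the Oasl locus, Git2, Ankrd13a and 1500011B03Rik on one side and 2210016L21Rik and Sppl3 on the other had log2 fold changes from −0.21 to 0.03, and none was called. Beside the Oas locus, Ddx54, Rasal1 and Dtx1 had −0.42, 0.04 and −0.45, and Rph3a and Ptpn11, beyond Oas1d, had 0.89 and 0.27, again with none called. Each locus thus held 1 called synthetase gene, Oasl1 and Oas2, while Oas3, with its overlapping groups, lies between Oas2 and Oas1c.

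The remaining Oas1 genes of the mouse were close to silent. Oas1e had 1 read in 1 library. Oas1d, known from the ovary, had 21 and 21 reads in control and 17 and 15 with lactate. Oas1f had 12 and 18 reads in control and 20 and 26 with lactate. Oas1h had 26 and 17 reads in control and 10 and 13 with lactate, but RSEM assigned it at most 4 reads in a library, so its raw counts are uncertain. None of the 3 that could be tested was called, and Oas1h was lower at an unadjusted p-value under 0.05, with log2 fold changes of −0.47 for Oas1d, 0.54 for Oas1f and −0.98 for Oas1h.

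**Figure D4:**
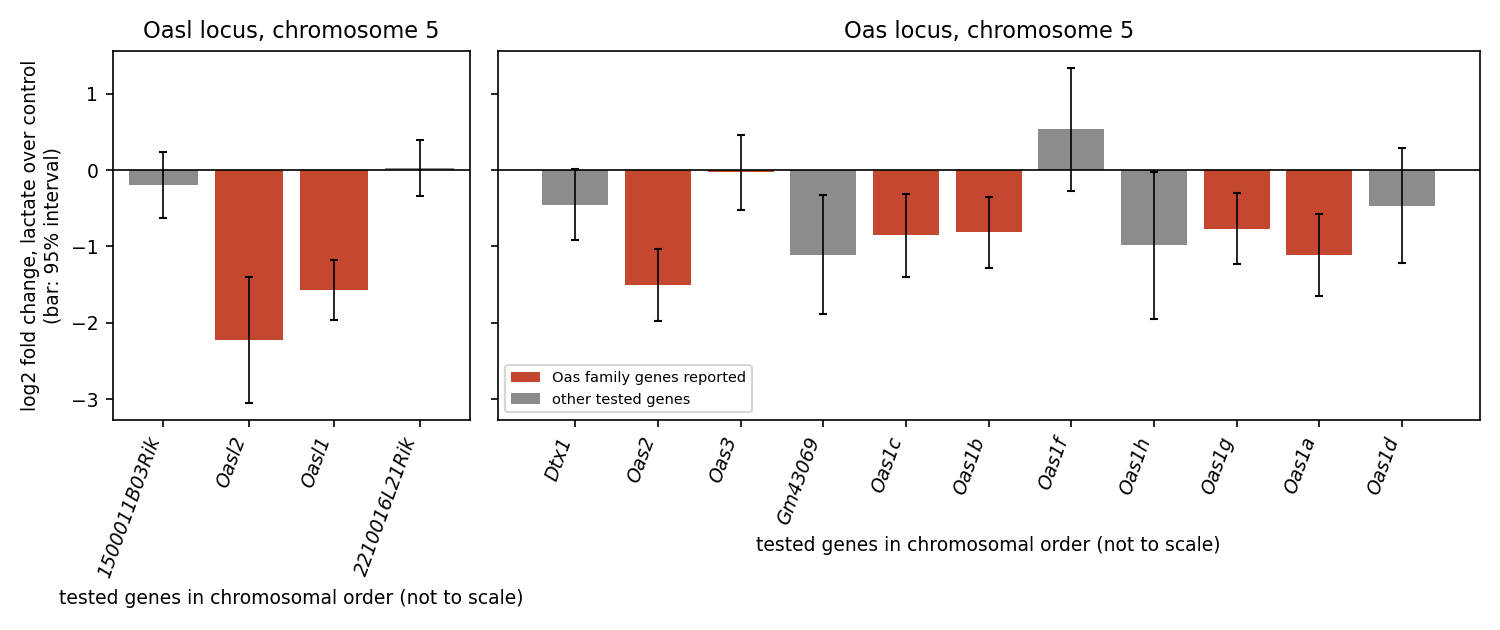
Log2 fold change, lactate over control, of the tested genes in chromosomal order at the Oasl and Oas loci with the nearest tested gene on each side, with 95% intervals from edgeR (red for the 8 synthetase genes, grey for other genes). Red bars reach from −0.77 to −2.22 apart from Oas3 at −0.03, and the outermost grey bars lie between −0.47 for Oas1d and 0.03 for 2210016L21Rik.

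Among genes of the 2-5A pathway beside the synthetases, Abce1, which encodes a ribosome recycling factor, was abundant, with 503 and 397 CPM in control and 622 and 491 CPM with lactate. The groups overlapped and its log2 fold change was 0.31 (95% interval −0.15 to 0.77, edgeR adjusted p = 0.385). Of the enzymes that degrade 2-5A, Pde12 had a log2 fold change of 0.10 and Akap7 of 0.55 (edgeR adjusted p = 0.731 and 0.225), and neither was called. None of the 3 genes of this list that could be tested had an unadjusted p-value under 0.05.

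Genes of RNA sensing and interferon signalling were followed in 7 lists, 47 genes in all with the remaining Oas1 and 2-5A genes. Whether their changes came before, after or beside those of the synthetase genes was not tested. Of the 35 that could be tested, 12 were higher and 23 lower with lactate, 1 was called lower and none higher. At an unadjusted p-value under 0.05, 14 of the 35 (40%) were lower and 1 was higher. Over all 18661 genes tested, 2125 (11.4%) were lower and 2186 higher at that threshold, and 0.348% were called lower. The called gene of the 35 was Usp18, a protease that removes ISG15 and dampens signalling at the interferon receptor. It had 100 and 122 reads in control and 25 and 35 with lactate (log2 −1.96, edgeR adjusted p = 0.0406). Usp18 was 1 of 5 genes in the list of brakes on interferon signalling, of which 3 were lower, with a median of −0.19.

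Among the transcription factors, Stat2, a subunit of the complex that binds the response element, had 89.6 and 85.0 CPM in control and 52.3 and 52.0 CPM with lactate. Its log2 fold change was −0.74 (95% interval −1.04 to −0.44, edgeR adjusted p = 0.0526). DESeq2 gave Stat2 an adjusted p of 0.00948, with a change under 2-fold. Another subunit, Irf9, had −0.62, and Irf7, which amplifies the interferon response, had −1.11 with an edgeR adjusted p of 0.0656. All 3 had separate groups, and DESeq2 called Irf7. Irf3, the factor upstream of interferon, had 0.07. Of the 7 tested STAT and IRF genes, 6 were lower, with a median of −0.55, and 5 had an unadjusted p-value under 0.05, though edgeR called none.

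Of the 8 genes for sensors of double-stranded RNA and their adaptor, 7 were lower and the median log2 fold change was −0.56, with none called by edgeR and 5 lower at an unadjusted p-value under 0.05. Ddx58, which encodes RIG-I, had 64.8 and 45.3 CPM in control and 35.9 and 28.5 CPM with lactate (log2 −0.77, edgeR adjusted p = 0.115, DESeq2 adjusted p = 0.0415). Ifih1, which encodes MDA5, had only 31 and 22 reads in control and 13 and 12 with lactate (log2 −1.16, edgeR adjusted p = 0.137). The 9 genes of interferon receptors and their kinases had a median of −0.09, with 4 higher and 5 lower, none called, and 1 in each direction at an unadjusted p-value under 0.05. Of 9 type I and type III interferon genes, 8 had no read in any library, which at 3 reads allows at most 0.173 CPM, and Ifnk had 3 and 2 reads with lactate and 0 in control.

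**Figure D5:**
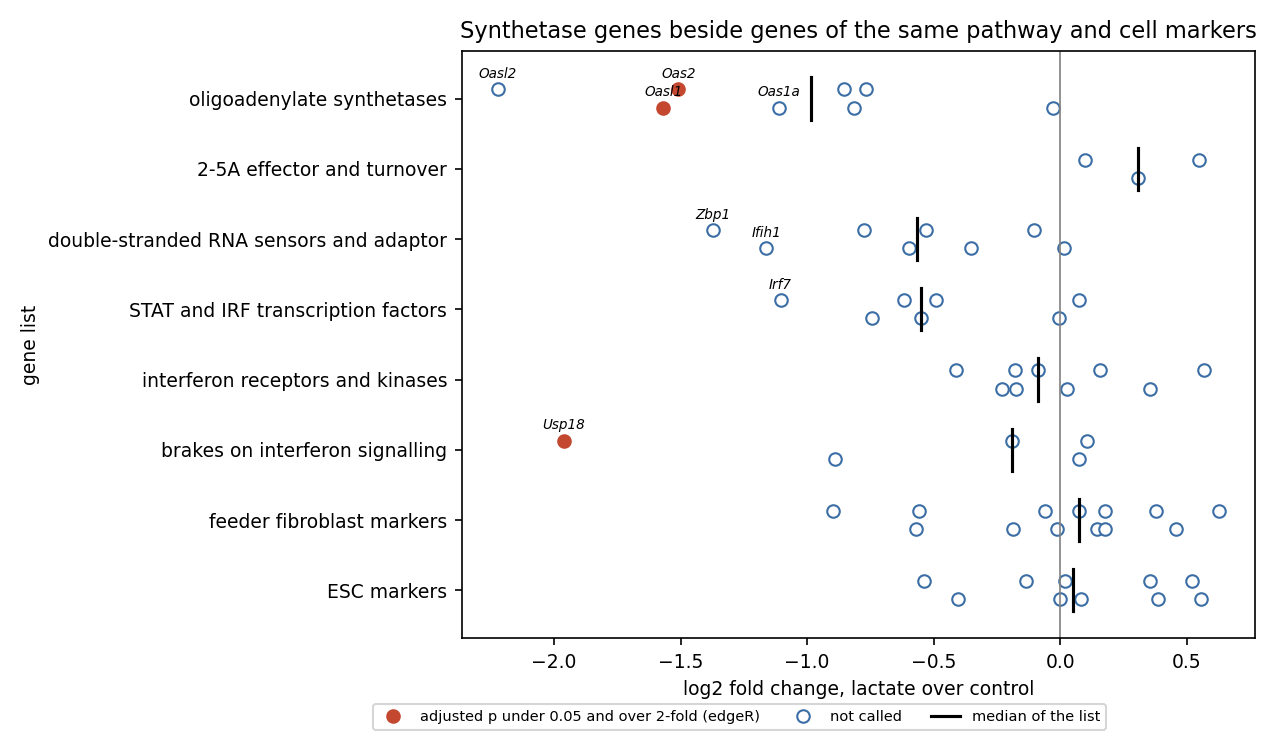
Log2 fold change of each tested gene, lactate over control, by list (filled red, called by edgeR; open, not called; black line, median of the list). The synthetases have the lowest median of the lists drawn, −0.98, and the feeder fibroblast and ESC markers are centred near 0, at 0.07 and 0.05.

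The profile of the 8 genes over the 4 libraries was compared with that of every other tested gene, by the root mean square difference of centred log2 CPM. March11, Gm44168, Mob3a, 2510016D11Rik and Def6 came nearest, with differences from 0.031 to 0.050. Of these, Mob3a had 385 and 437 reads in control and 182 and 234 with lactate, and Def6 had 507 and 585 against 235 and 294. The other 3 had at most 30 reads in any library. Only Def6 was called by edgeR (log2 −1.13, adjusted p = 0.0474), and likeness over 4 libraries in 2 groups is a description only.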

How the data were processed

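The 8 genes and the gene lists were chosen with earlier results of these data known. Reads were trimmed by the authors (cutadapt 1.16) and aligned with STAR, and the deposited raw counts cover GENCODE M23 genes and 1153 transposable element families; use of strand is not stated. For each library they deposited RSEM expected counts, TPM and FPKM, and TPM was not used here. Positions are from GENCODE M21 on GRCm38, in which 54587 of the 55335 gene identifiers have the same version.

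Counts of genes alone were filtered by filterByExpr, scaled by TMM (factors 0.959 to 1.04) and tested with edgeR 4.0.16 (quasi-likelihood test, legacy form, no replicate term) in R 4.3.3, with Benjamini-Hochberg adjustment over all 18661 genes. Alternatives used DESeq2 1.42.0 on the same genes and limma 3.58.1 on log2(FPKM + 1) and log2(FPKM + 0.1) above a mean FPKM of 0.1. Expected counts were rounded. Standard errors are the log2 change over the square root of F, and intervals cover 95%. The test was checked on simulated counts. Named were the 8 genes, other Oas1 genes, 2-5A genes, 6 sensors and factors, called genes of the lists, the 3 nearest tested genes on each side of a locus and the 5 nearest profiles, besides cell markers. Apol9a and Apol9b, and Irf3, Col3a1 and Gm43069, were named outside this rule after values were seen. Within control and within lactate, libraries differed beyond counting error (chi-square over degrees of freedom, 22.3 and 21.6). Some genes that this rule names are not reported here.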

Additional observations from a re-analysis of the deposited data

How the results depend on the processing

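Over 15 alternative settings, 7 of the 8 genes had lower levels with lactate in every setting, and Oas3 was lower in 10. Its log2 fold change was 0.039 with library totals, 0.0058 with upper-quartile factors, 0.035 and 0.054 with limma at a pseudocount of 1 and 0.1, and 0.087 without control replicate 2 (−0.15 without control replicate 1), and the cause was not tested. Oasl1 was called in 13 settings, Oas2 in 11, Oasl2 in 7 and Oas1a in 4. In place of 2, the number of the 8 genes called was 4 with DESeq2, without a filter on low counts and with the replicate block, 3 with edgeR not in its legacy form (Oasl2 added), 1 with RSEM expected counts and 0 with limma, which called no gene of the table (1123 lower and 1791 higher at an unadjusted p under 0.05 with a pseudocount of 1). The number at an adjusted p under 0.05 was 4 with DESeq2, 7 without the filter, 7 with the replicate block, 3 not in the legacy form, 1 with RSEM and 0 with limma, where at an unadjusted p under 0.05 limma had 7 at each pseudocount. The median log2 fold change of −0.98 was −1.06 with RSEM, −0.92 with library totals and −1.10 with limma at a pseudocount of 0.1. Leaving out each library in turn gave 1 to 5 genes called, 1 to 6 at an adjusted p under 0.05 and medians from −1.24 to −0.84, on the assumption that the lone library of a group varies as the other group does. Over all genes these fits called 39 to 367 lower, against 65. Without control replicate 1 only Oasl1 was called, and without lactate replicate 2 Oas1a, Oas1c and Oasl2 were called too. In the pathway lists 1 gene was called, against 2 with DESeq2 and 4 with the replicate block. The block rests on replicate numbers that the labels do not tie to a shared culture or day, and deviations of same-numbered libraries correlated at 0.561. It raised the calls over all genes from 103 higher and 65 lower to 761 and 395, and without the filter on low counts these were 482 and 325. DESeq2 called 213 and 162, and RSEM counts gave 27 and 17. With library totals the share of higher calls rose from 61.3% to 73.0%. Precision is limited most for Oasl2, with at most 75 reads in a library.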
